A study of Mus musculus with 68 samples.

Results

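The transgene effect in older mice lacking SPARC was measured by setting prostates that carry the TRAMP transgene against prostates that do not, with SPARC deleted in both groups. The arrays were taken by the genotype and age in the labels, which gave 13 of the 68 arrays of the series. The SPARC-/- TRAMP +/- group (SPARC-null TRAMP) held 9 animals of 24 to 29 weeks, ST1 to ST7, ST15 and ST16. The SPARC-/- TRAMP -/- group (SPARC-null non-transgenic) held 4 animals of 25 to 27 weeks, S2, S3, S5 and S6. TRAMP mice express the T antigens of simian virus 40 (SV40) in prostate epithelium from the rat probasin promoter. SPARC is a collagen-binding matricellular protein. Both groups lack it, so the comparison shows the effect of the transgene on that background and not the effect of SPARC loss. All samples carry the tissue label of prostate tumours, those without the transgene included, and no label gives a histological type or says which lobes were taken. For comparison, the same transgene effect was computed in late mice with intact Sparc (TRAMP +/-, 7 animals of 24 to 25 weeks, minus TRAMP -/-, 6 animals of 24 weeks). It was also computed in early SPARC-null mice (6 transgenic animals of 18 to 19 weeks minus 7 non-transgenic animals of 16 to 18 weeks).

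Large T antigen binds the retinoblastoma protein and its relatives (the pocket proteins) and so releases E2F transcription factors, which switch on genes for DNA replication and entry into S phase. It also binds and blocks p53, the regulator of the DNA damage response. Normal prostate luminal cells divide rarely and are dominated by the synthesis of androgen-dependent secreted proteins, so both sides of this programme can be read from RNA.

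Values are log2 expression levels on Clariom S arrays, and a difference of 1 on this scale is 2-fold. Every difference below is SPARC-null TRAMP minus SPARC-null non-transgenic, and a gene was called, and is said to have risen or fallen, where limma's adjusted p was under 0.05 over the 22206 probe sets tested. Levels of different genes are not comparable, because each is read by its own probes. Over all probe sets the median difference was 0.03.

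The labels of the 13 compared arrays were checked first, and the transgene labels of the other arrays in the fit were not checked. The arrays carry 6 control probe sets with SV40 in their name, and their mean was 7.55 ± 0.26 in SPARC-null TRAMP (SD, n = 9), with a range from 7.28 to 8.02. They averaged 5.15 ± 0.12 in SPARC-null non-transgenic arrays (SD, n = 4), with a range from 5.02 to 5.28. The groups did not overlap, and the difference of 2.41 had an exact permutation p of 0.0014, the smallest that 9 against 4 arrays allow (2-sided, adjusted p = 0.0028 over this test and the same test of Sparc). Sparc, deleted in both groups, was set beside the late mice with intact Sparc. It averaged 6.23 ± 0.22 in SPARC-null TRAMP (SD, n = 9; 5.77 to 6.52) and 6.57 ± 0.32 in TRAMP mice with intact Sparc (SD, n = 7; 6.30 to 7.21), and these groups overlapped. It averaged 6.03 ± 0.30 in SPARC-null non-transgenic arrays (SD, n = 4; 5.73 to 6.32) and 6.89 ± 0.45 in non-transgenic mice with intact Sparc (SD, n = 6; 6.36 to 7.56), without overlap. These differences were not tested here, and the probe set is a weak check of the deletion, since the sources used here do not say which part of the transcript it reads. Prostate identity was plain in both groups: probasin (Pbsn), the androgen-dependent secretory protein whose rat promoter drives the transgene, averaged 10.97 ± 0.54 in SPARC-null TRAMP (SD, n = 9) and 11.95 ± 0.24 in SPARC-null non-transgenic arrays (SD, n = 4). The prostate transglutaminase Tgm4 averaged 12.27 ± 0.41 in SPARC-null TRAMP (SD, n = 9) and 13.03 ± 0.03 in SPARC-null non-transgenic arrays (SD, n = 4).

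Array quality and age were not balanced. The separation of positive from negative control probe sets (area under the curve, AUC) ran from 0.715 to 0.780 in SPARC-null TRAMP and from 0.755 to 0.799 in SPARC-null non-transgenic arrays. ST15 and ST16, at 24 weeks, and S5 and S6, at 25 weeks, had the 4 highest AUC values, so that age and quality ran together. With AUC as a covariate, 40 of the 48 genes named below kept their call, and the 8 that lost it were all falls. With age as a covariate 43 kept it, and 4 of the 5 that lost it are among the 8. No pair of arrays was identical.

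Transgenic prostates differed from non-transgenic ones at 282 probe sets, 1.27% of those tested, of which 202 rose (0.91%) and 80 fell (0.36%). At least 2-fold were 58 of the rises and 16 of the falls (0.333% of probe sets in all). Some calls were at low signal. The SPARC-null TRAMP mean lay below the median negative control probe set for 22 rises and 11 falls. The non-transgenic mean did so for 53 rises and 6 falls. Among the lists, called rises were most numerous for DNA replication (19 of 38) and mitosis (15 of 36). The largest falls were those of Spink1, Sbpl, Spink5 and Wfdc3. Among rises 171 had every SPARC-null TRAMP array above every SPARC-null non-transgenic array, a pattern found in 2.34% of all probe sets. Among falls 49 had every SPARC-null TRAMP array below, against 1.52% of all probe sets. The arrays S5 and S6 carried much of this. Without S5 the counts were 96 rises and 11 falls, without S6 they were 108 and 22, and without S3 there were 126 rises. Without ST5 there were 51 falls, and without ST15 145. On the 13 arrays alone, with a spread not shared with the other groups, 559 rose and 552 fell.

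**Figure D1:**
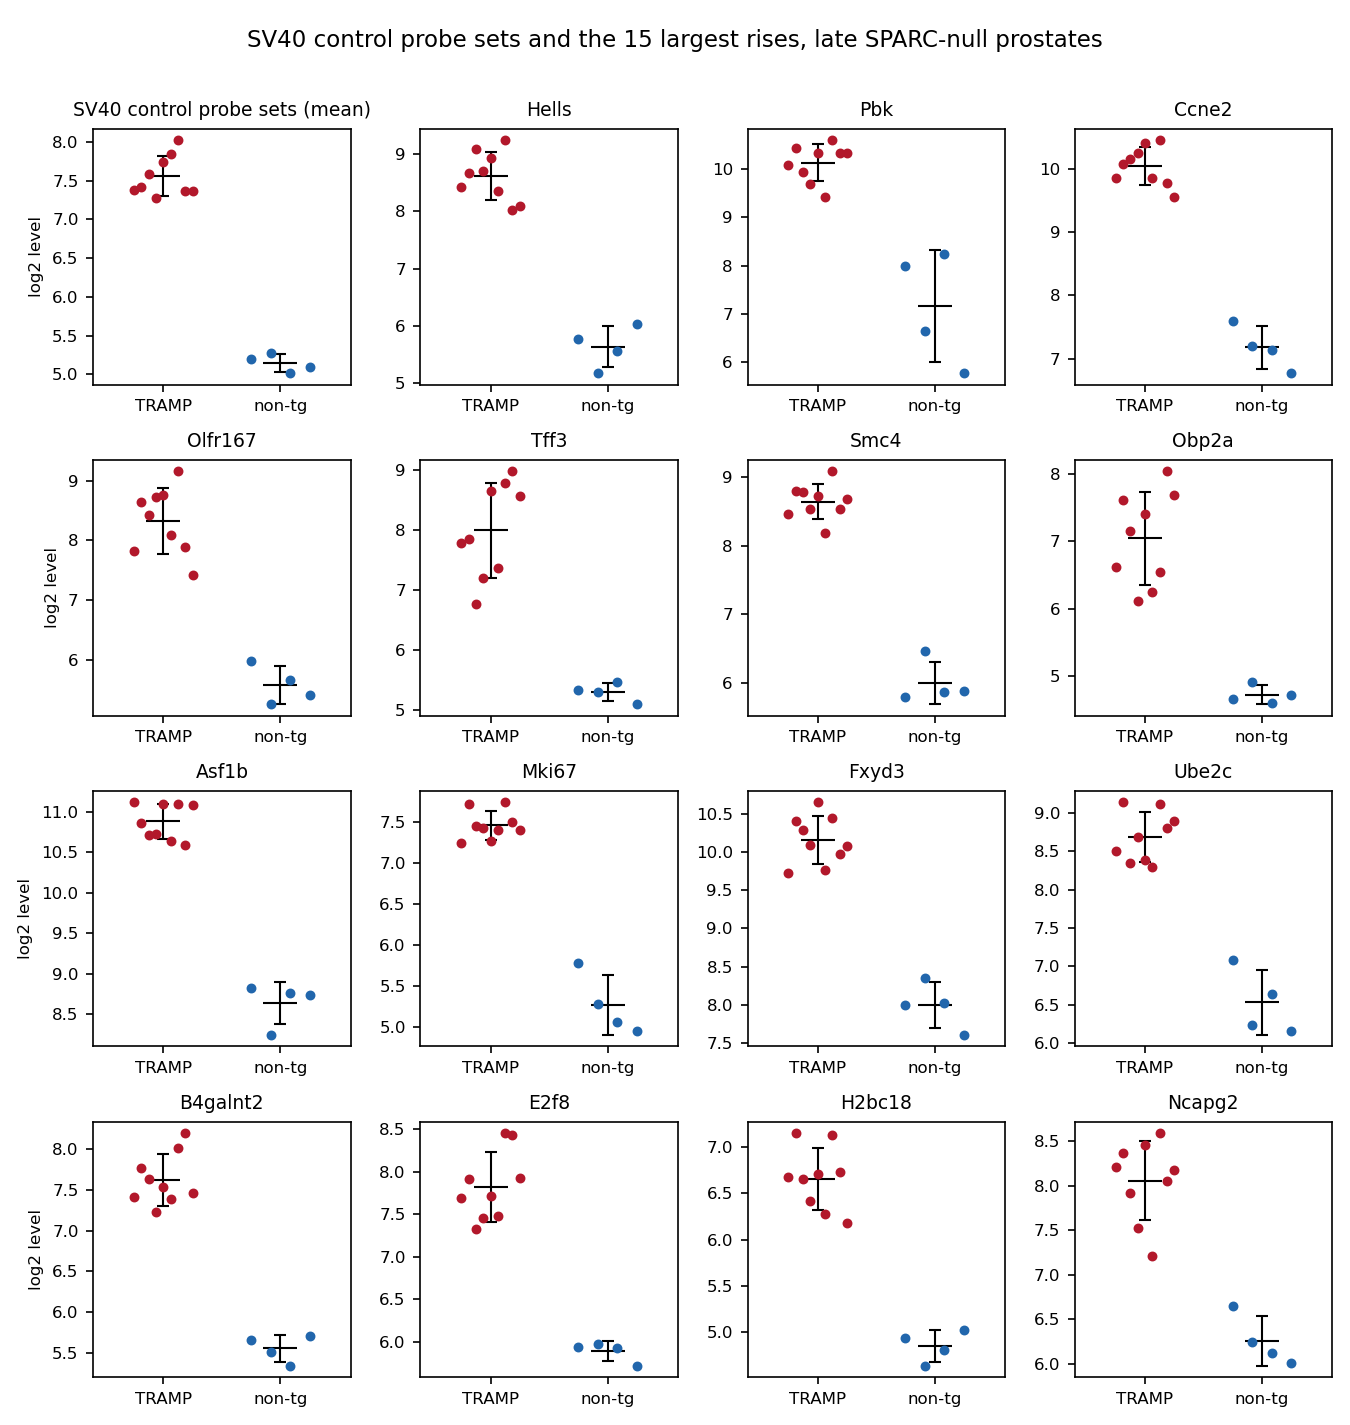
Log2 levels (vertical axes) of the mean of the SV40 control probe sets and of the 15 genes with the largest rise, with a point for each array, 9 SPARC-null TRAMP arrays at left and 4 SPARC-null non-transgenic (non-tg) arrays at right, and bars for mean ± SD. In all 16 panels every TRAMP point lies above every non-transgenic point, as for Hells with 8.02 to 9.23 in TRAMP and 5.18 to 6.03 without the transgene.

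Cyclin E2 (Ccne2), which activates CDK2 for entry into S phase, is a textbook E2F target and among the largest rises. Its level on the SPARC-null TRAMP arrays had a lowest value of 9.56, a median of 10.08 and a highest value of 10.45, against 7.60, 7.20, 7.13 and 6.77 on S2, S3, S5 and S6. The groups were far apart, with a difference of 2.87 ± 0.32 (SE), a 7.3-fold rise (limma adjusted p = 1.49e-08). E2f8, an atypical E2F repressor that is itself an E2F target, ran from 7.32 to 8.45 with a median of 7.71 in SPARC-null TRAMP, against 5.94, 5.98, 5.93 and 5.72 on the same non-transgenic arrays. It rose by 1.93 ± 0.23 (SE; limma adjusted p = 5.17e-08). Of the 24 measured genes of the pocket protein and E2F list 6 rose, none fell, and the median difference was 0.25 against 0.03 for all probe sets. The others that rose were Rbl1, which encodes the pocket protein p107 (0.78), Cdk2 (0.78), the E2F partner Tfdp1 (0.73) and Lin9 of the MuvB complex (0.53). Rbl1 was dim, with means above 49.9% of negative control probe sets in SPARC-null TRAMP and 38.5% in SPARC-null non-transgenic arrays. Rb1 itself differed by 0.17 (limma adjusted p = 0.556) and E2f1 by 0.44 (limma adjusted p = 0.454). Without S5 or without S6, 2 members were called, and without S2 or S3 3 were.

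The upstream DNA of the named rises was searched for 4 E2F-type octamers, TTTCCCGC, TTTCGCGC, TTTGCCGC and TTTGGCGC, on both strands, in the 250 bases before the first RefSeq start of each gene (GRCm38.p6). A window was on hand for 160 of the 189 genes that rose, and 25 of them (15.6%) held a match. The share was 2.5% of the 15691 tested genes with a window, and 3.64% (2 of 55) among genes that fell. Of the 38 replication genes 31 had a window, and 7 (22.6%) held a match. In the mitosis list 1 of 30 windows (3.33%) held one, although 15 of its 36 genes rose. A 2nd motif, the CHR hexamer TTTGAA, was searched in the same windows. It was found in 10 of 30 mitosis windows (33.3%) and 4 of 31 replication windows (12.9%). In the other lists searched it was found in 6 of 16 chromatin windows (37.5%), 3 of 18 E2F list windows (16.7%) and 1 of 18 repair windows (5.56%). The share was 25.0% (40 of 160) among genes that rose, 10.9% (6 of 55) among those that fell and 14.2% of all tested genes with a window. A window was on hand for 22 of the 30 named rises, and 6 held an E2F-type match. These 6 are printed to show the letters found: Mcm6 of the replication list, Rbl1 and Cdk2 of the E2F list, Hells of the chromatin list, Brca2 of the repair list, and Ncapg2, which is in no list. Each stretch is 100 bases, read 5′ to 3′ in the direction of the gene, with the match in capitals (a reverse-strand match reads GCGGGAAA, GCGCGAAA, GCGGCAAA or GCGCCAAA). Hells lies at chr19:38930890-38930989 (plus strand), Ncapg2 at chr12:116405187-116405286 (plus), Brca2 at chr5:150522453-150522552 (plus), Mcm6 at chr1:128359716-128359815 (minus), Rbl1 at chr2:157204535-157204634 (minus) and Cdk2 at chr10:128705092-128705191 (minus).
Hells: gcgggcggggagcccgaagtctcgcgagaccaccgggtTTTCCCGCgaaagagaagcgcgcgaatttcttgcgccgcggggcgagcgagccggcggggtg
Ncapg2: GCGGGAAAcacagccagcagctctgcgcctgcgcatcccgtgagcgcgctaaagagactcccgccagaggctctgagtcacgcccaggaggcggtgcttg
Brca2: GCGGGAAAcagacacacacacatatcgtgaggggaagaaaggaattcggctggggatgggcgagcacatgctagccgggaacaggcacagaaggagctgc
Mcm6: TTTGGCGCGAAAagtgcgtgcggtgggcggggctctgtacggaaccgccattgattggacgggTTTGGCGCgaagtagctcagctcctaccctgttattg
Rbl1: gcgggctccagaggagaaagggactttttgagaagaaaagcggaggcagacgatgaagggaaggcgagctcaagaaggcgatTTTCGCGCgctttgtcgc
Cdk2: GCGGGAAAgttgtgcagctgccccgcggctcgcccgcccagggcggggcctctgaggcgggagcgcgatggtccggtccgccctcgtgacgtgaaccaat
Mcm6 holds 3 matches, of which the first and second overlap, and the other stretches hold 1 each. A match is a description of the letters and does not show binding.

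Copying the genome needs the MCM helicase, the primase and the sliding clamp, and genes for each of them rose. Of the 38 measured DNA replication genes 19 rose and none fell, 36 differences lay above 0, and the median was 0.55. Pcna, the sliding clamp, ran from 7.91 to 8.85 with a median of 8.33 in SPARC-null TRAMP, against 7.11, 6.88, 6.14 and 6.53 on S2, S3, S5 and S6. It rose by 1.67 ± 0.27 (SE; limma adjusted p = 5.13e-05). The primase subunit Prim1 rose by 1.59, and the helicase subunits Mcm6 and Mcm2 by 1.17 and 1.15. Dut, which removes dUTP from the nucleotide pool, had the lowest difference of the list at -0.15 (limma adjusted p = 0.797). Without S5 11 members were called, and without either S3 or S6 13 were.

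Mitotic genes moved the same way. Of 36 measured, 15 rose and none fell, 35 differences lay above 0, and the median was 0.47. Leaving out any 1 array left 14 to 16 rises. Mki67, the antigen used to stain dividing cells, ran from 7.23 to 7.73 with a median of 7.42 in SPARC-null TRAMP, against 5.77, 5.27, 5.06 and 4.95 on S2, S3, S5 and S6. The difference was 2.19 ± 0.25 (SE), a 4.56-fold rise (limma adjusted p = 1.5e-08). All SPARC-null TRAMP arrays lay above all non-transgenic ones. Pbk, a mitotic kinase, rose by 2.96 ± 0.43 (SE; limma adjusted p = 9.08e-06). Its non-transgenic values were spread, at 7.99, 6.65, 8.25 and 5.78 on S2, S3, S5 and S6, against 9.43 to 10.60 in SPARC-null TRAMP. Ube2c, the ubiquitin-conjugating enzyme of the anaphase-promoting complex, rose by 2.16, and Kif23, a kinesin of cytokinesis, by 1.19. Outside the list, the condensin genes Smc4 and Ncapg2 rose by 2.65 and 1.80. Not all mitotic genes were called, Top2a (0.07, limma adjusted p = 0.938) and Aurka (0.17, limma adjusted p = 0.664) among them. In bulk tissue, more dividing cells and more of these RNAs in each cell cannot be told apart.

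In the chromatin list the largest rise was that of Hells. This gene, which encodes a helicase needed for DNA methylation and heterochromatin, had 8.42, 8.66, 9.08, 8.70, 8.93, 8.36, 9.23, 8.02 and 8.10 on ST1 to ST7, ST15 and ST16, against 5.77, 5.18, 5.57 and 6.03 on S2, S3, S5 and S6. The groups were far apart, and the difference was 2.97 ± 0.30 (SE), a 7.86-fold rise (limma adjusted p = 9.33e-10). The rise of Pbk differed from it by less than the error, and with AUC as a covariate the differences of Pbk (3.50), Smc4 (3.42) and Ccne2 (3.20) were above that of Hells (3.12). Asf1b, a histone chaperone of replicating cells, rose by 2.25, Hmgb2, a DNA-bending protein, by 1.45, and Ezh2, the methyltransferase of the Polycomb complex, by 0.92. With Dnmt1, the maintenance DNA methyltransferase, at 0.62, 5 of the 18 measured genes of the list rose and none fell (median 0.22). Leaving out any 1 array left 5, and with AUC as a covariate 8 were called. H2bc18, a replication-dependent histone gene, rose by 1.81, but histone genes are near-identical copies that probes may not separate.

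Some repair genes rose, and no p53 target was called. Of 21 measured DNA damage response and repair genes 5 rose and none fell (median 0.28), among them Rad51ap1 (1.57) and Brca2 (1.39), both of homologous recombination, Blm, a helicase (0.74), and Exo1, an exonuclease (0.63). Exo1 was dim, with means above 40.2% of negative control probe sets in SPARC-null TRAMP and 30.9% in SPARC-null non-transgenic arrays. The list counts were 2 without S5, 3 without S3 and 3 without S6, and Blm lost its call under 11 of 25 alternative settings. With AUC as a covariate 8 members were called. Of the 20 measured p53 target genes 0 were called by limma (median 0.02, smallest adjusted p = 0.285). Cdkn1a, the p53-induced inhibitor of cyclin-dependent kinases, differed by 0.26 (limma adjusted p = 0.525) and Mdm2, the p53 ubiquitin ligase, by -0.28 (limma adjusted p = 0.475). Trp53 has no named probe set on these arrays.

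Of 16 measured interferon-response genes 2 rose, Usp18, which removes ISG15 from proteins, and Mx2, an antiviral GTPase. The median of the list was 0.42 and 15 differences were above 0, as were 55.6% of those of all probe sets. Usp18 ran from 6.99 to 8.03 with a median of 7.47 in SPARC-null TRAMP, against 6.27, 6.73, 6.69 and 6.73 on S2, S3, S5 and S6, a difference of 0.90 ± 0.20 (SE; limma adjusted p = 0.00775). Mx2 rose by 0.59. The mean level of the 16 genes ran from 5.98 to 6.38 in SPARC-null TRAMP and from 5.73 to 5.85 in SPARC-null non-transgenic arrays, without overlap. Without S2 or without S5 1 member was called, and with AUC as a covariate 6 were. Among immune cell markers no gene was called in the lists for macrophages and dendritic cells (17 measured, median 0.17), T and NK cells (17, median 0.13), neutrophils (11, median 0.11), B and plasma cells (9, median 0.07) and mast cells (14, median 0.05).

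Several of the largest rises had no place in the cell cycle lists. Tff3, a trefoil peptide that mucus-secreting epithelia release, had 7.79, 7.85, 6.76, 7.20, 8.66, 7.37, 8.78, 8.98 and 8.57 on ST1 to ST7, ST15 and ST16, against 5.34, 5.31, 5.48 and 5.11 on S2, S3, S5 and S6. The transgenic arrays were spread widely and the non-transgenic ones lay close together, and the difference was 2.69 ± 0.38 (SE; limma adjusted p = 6.39e-06). Obp2a, a lipocalin, rose by 2.32, and was likewise highest on ST15, at 8.04. Fxyd3, a regulator of the sodium pump, rose by 2.17, and B4galnt2, a glycosyltransferase, by 2.07. Olfr167, an olfactory receptor gene, rose by 2.75 ± 0.31 (SE; limma adjusted p = 1.5e-08), with 7.42 to 9.16 in SPARC-null TRAMP and 5.26 to 5.98 in SPARC-null non-transgenic arrays. These 5 genes kept their call under all 25 alternative settings.

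**Figure D2:**
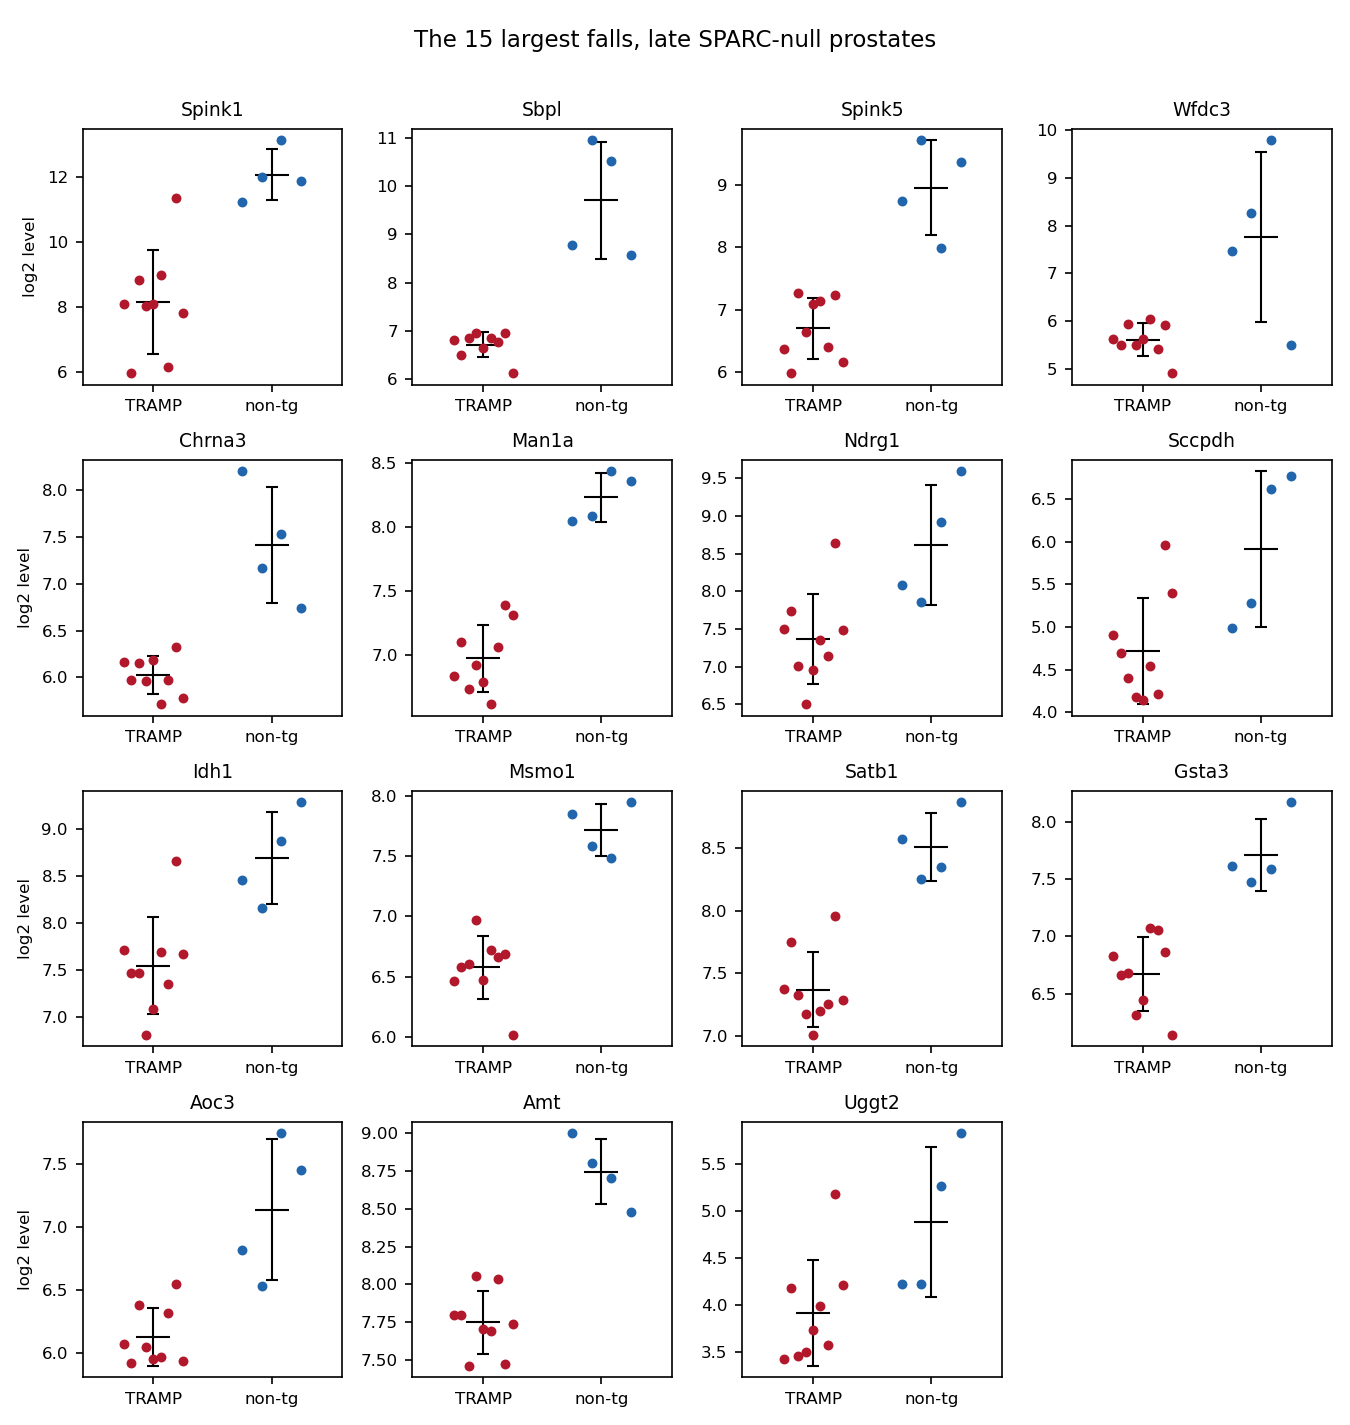
Log2 levels (vertical axes) of the 15 genes with the largest fall, with a point for each array, 9 SPARC-null TRAMP arrays at left and 4 SPARC-null non-transgenic (non-tg) arrays at right, and bars for mean ± SD. In 8 of the 15 panels every TRAMP point lies below every non-transgenic point, and in Spink1 the TRAMP array ST15, at 11.37, reaches the non-transgenic range of 11.24 to 13.13.

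The largest falls were less evenly spread over the arrays than the largest rises, with ranges apart for 8 of 15. Spink1, a trypsin inhibitor of prostate and seminal vesicle secretions in mice, had 8.08, 5.96, 8.81, 8.02, 8.10, 8.97, 6.16, 11.37 and 7.82 on ST1 to ST7, ST15 and ST16, against 11.24, 11.997, 13.13 and 11.89 on S2, S3, S5 and S6. The groups overlapped through ST15, and the difference was -3.92 ± 1.07 (SE; limma adjusted p = 0.0436). The call was lost under 13 of 25 alternatives, with an adjusted p of 0.243 without S5. Sbpl, a relative of the prostate spermine-binding protein, ran from 6.12 to 6.96 with a median of 6.81 in SPARC-null TRAMP, against 8.77, 10.96, 10.53 and 8.57 on S2, S3, S5 and S6. It fell by 2.996 (SE 0.70; limma adjusted p = 0.0103, but 0.101 without S5 and 0.0929 without S3). Spink5, a serine protease inhibitor of epithelia, fell by 2.26 (limma adjusted p = 0.043) and lost its call under 13 alternatives. Wfdc3, of the whey acidic protein family, fell by 2.15, with 4.91 to 6.04 in SPARC-null TRAMP, against 7.48, 8.27, 9.79 and 5.49 on S2, S3, S5 and S6. Here S6 was inside the transgenic range (limma adjusted p = 0.00727, but 0.254 without S5 and 0.0565 without S3).

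Most other luminal genes were not called. Of 25 measured androgen-regulated and luminal secretory genes 2 fell and none rose, 8 differences lay above 0, and the median was -0.33. The members that fell are Spink1 and Spink5, and all 10 settings that give 0 by leaving out 1 array (each except ST3, ST6 and ST15) end both calls. On the 13 arrays alone 8 fell. Pbsn differed by -0.98 (limma adjusted p = 0.506) and Tgm4 by -0.76 (limma adjusted p = 0.736), although for both every SPARC-null TRAMP array lay below every SPARC-null non-transgenic one. The keratin Krt8 differed by 0.02 (limma adjusted p = 0.988) and the luminal surface antigen Psca by 1.02 (limma adjusted p = 0.205). The endoplasmic reticulum and unfolded protein list, which serves secretion, had no call by limma among 22 genes, but 21 of the differences were below 0 and the median was -0.34. The mean level of its genes ran from 7.96 to 8.32 in SPARC-null TRAMP and from 8.39 to 8.76 in SPARC-null non-transgenic arrays, without overlap. For the androgen-regulated and luminal list these ranges overlapped, at 8.07 to 9.13 and 8.89 to 9.21. The chaperone Hspa5 differed by -0.70 (limma adjusted p = 0.55) and the disulfide isomerase Pdia6 by -0.76 (limma adjusted p = 0.108). No polyamine or citrate gene of 12 was called (median -0.29), with Sat1, the polyamine acetyltransferase, lowest at -1.13 (limma adjusted p = 0.0725). The mean level of the 12 genes ran from 6.77 to 7.06 in SPARC-null TRAMP and from 7.13 to 7.31 in SPARC-null non-transgenic arrays, without overlap.

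The rest of the largest falls were smaller. Chrna3, a nicotinic acetylcholine receptor subunit, ran from 5.72 to 6.32 with a median of 5.98 in SPARC-null TRAMP, against 8.20, 7.17, 7.54 and 6.74 on S2, S3, S5 and S6. It fell by 1.39 (SE 0.25; limma adjusted p = 2.78e-04), and of the 18 named falls it alone was called under all 25 alternatives. Man1a, a mannosidase of glycoprotein trimming, fell by 1.26, and Uggt2, a folding sensor of the endoplasmic reticulum, by 0.97. Uggt2 was dim, with means above 23.6% of negative control probe sets in SPARC-null TRAMP and 42.8% in SPARC-null non-transgenic arrays. Msmo1, a cholesterol synthesis enzyme, ran from 6.02 to 6.97 in SPARC-null TRAMP, against 7.84, 7.58, 7.48 and 7.94 on S2, S3, S5 and S6, and fell by 1.14 (limma adjusted p = 0.00796). Idh1, the cytosolic isocitrate dehydrogenase, fell by 1.15, Gsta3, a glutathione transferase, by 1.04, and Amt, of glycine cleavage, by 0.996. Ndrg1, a hypoxia- and androgen-responsive gene, fell by 1.24, Sccpdh by 1.20 and the chromatin organiser Satb1 by 1.13. The amine oxidase Aoc3 was also called, with a difference of -1.004.

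Within SPARC-null TRAMP, 10 of the 15 largest falls were highest on ST15. Within the non-transgenic group 11 were highest on S5 or S6. These are 3 of the 4 arrays of highest AUC. ST15, at 24 weeks, also had the highest mean level of seminal vesicle genes among the SPARC-null TRAMP arrays, 11.22. Age, quality and tissue content cannot be told apart on this array. With AUC as a covariate the difference of Idh1 was -0.56 (limma adjusted p = 0.105), that of Ndrg1 -0.68 (0.05) and that of Spink1 -2.99 (0.0829), and Sccpdh, Satb1, Uggt2, Trp63 and Clec3b also lost their calls. Within the 24 and 25 week arrays, Idh1 differed by -0.92 (2 TRAMP against 2 non-transgenic arrays), and within the arrays of 27 to 29 weeks by -0.94 (7 against 2). For Spink1 these values were -2.91 and -3.89, and for Chrna3 -1.08 and -1.67. All 18 named falls were below 0 in both age sets. In both sets every TRAMP array had a lower AUC than every non-transgenic array. At 24 and 25 weeks AUC ran from 0.761 to 0.780 against 0.797 to 0.799. At 27 to 29 weeks it ran from 0.715 to 0.747 against 0.755 to 0.758. The split therefore does not separate the transgene from array quality. This split by age was chosen after the data were seen, and it describes the arrays that also chose the genes.

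**Figure D3:**
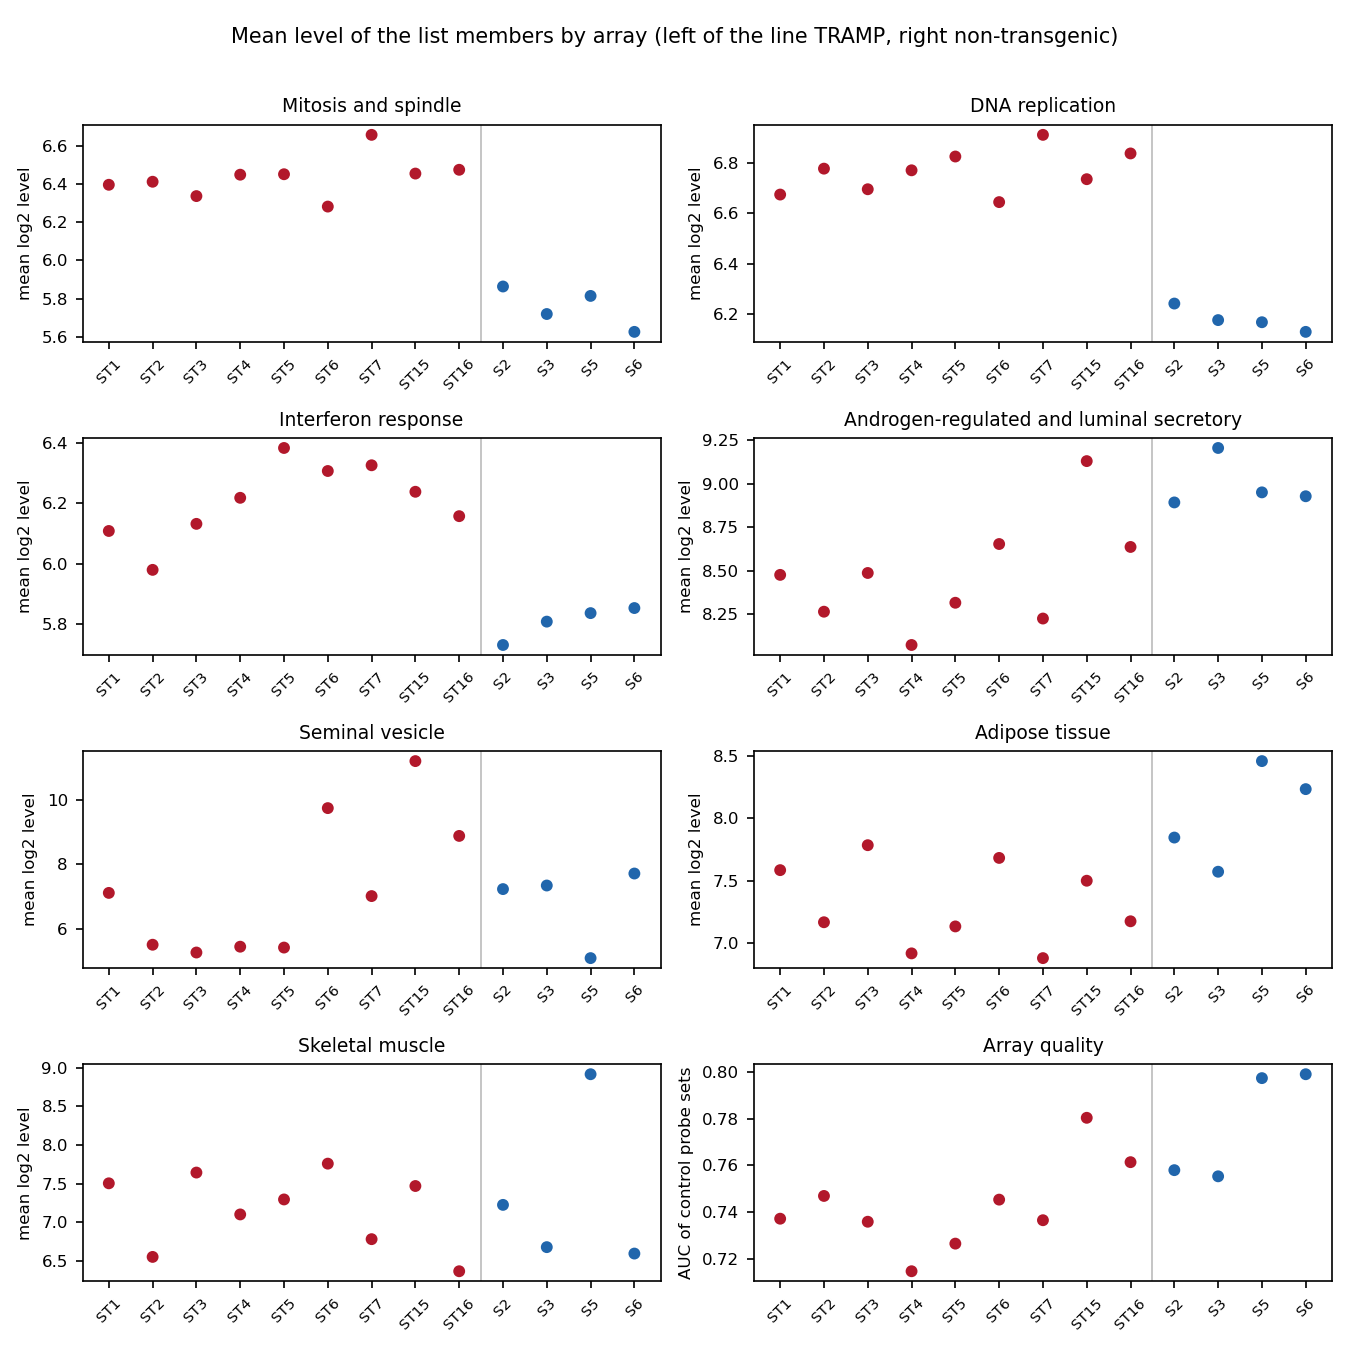
Mean log2 level of the measured members of 7 gene lists and the AUC of the control probe sets (vertical axes) for each array, 9 SPARC-null TRAMP arrays left of the line and 4 SPARC-null non-transgenic arrays right of it. Mitosis, DNA replication and interferon levels do not overlap between the groups, while Seminal vesicle levels run from 5.25 to 11.2 within TRAMP and overlap the non-transgenic range of 5.08 to 7.72.

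Markers of neighbouring tissues varied between animals of a group. Seminal vesicle genes (10 measured, 0 called, median 1.01) had mean levels of 9.75, 11.22 and 8.89 on ST6, ST15 and ST16 and of 5.25 to 7.11 on the other SPARC-null TRAMP arrays, against 7.23, 7.34, 5.08 and 7.72 on S2, S3, S5 and S6. Without ST6, ST15 and ST16 there were 239 rises and 209 falls. Adipose genes (9 measured) had mean levels of 6.88 to 7.78 in SPARC-null TRAMP and 7.57 to 8.46 in SPARC-null non-transgenic arrays, all 9 differences were below 0, and the median was -0.68. Of these Plin1, which coats lipid droplets, was called, at -0.70, and lost its call under 11 alternatives, leaving out S2, S5 or S6 among them. Skeletal muscle genes (12 measured, 0 called, median -0.22) were highest on S5, with a mean level of 8.92. The part of these tissues in the genes that fell was not tested.

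Other cell types gave few calls. Trp63, the transcription factor that defines basal epithelium, was the 1 gene of 12 in its list that fell, by 0.80, with 5.68 to 6.56 in SPARC-null TRAMP, against 6.54, 6.88, 6.66 and 7.27 on S2, S3, S5 and S6 (limma adjusted p = 0.0312, but 0.0926 without S3, 0.0751 without S5 and 0.282 without S6). Clec3b, a plasminogen-binding lectin, was the 1 gene of 15 fibroblast genes that fell, by 0.83, and its call was lost without S3, S5 or S6. No gene was called by limma in the lists for smooth muscle (15, median -0.26), endothelium (12, median -0.13), fibrillar collagen and matrix (20, median 0.01), basement membrane (17, median -0.09), matricellular proteins (17, median -0.01), mesenchymal transition (16, median -0.04), epithelial adhesion (15, median 0.11), urothelium (9, median 0.00) or autonomic neurons and glia (7, median 0.03). Among hypoxia and glycolysis genes (14, median -0.19) only Ndrg1 was called, and not without S5 or S6. The series concerns adenocarcinoma and neuroendocrine carcinoma, and of 28 measured neuroendocrine genes limma called 0 (median 0.03, smallest adjusted p = 0.0778 for Sox2 at 0.58). Chga, the chromogranin of neuroendocrine granules, differed by -0.12 and Syp, a synaptic vesicle protein, by -0.34.

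**Figure D4:**
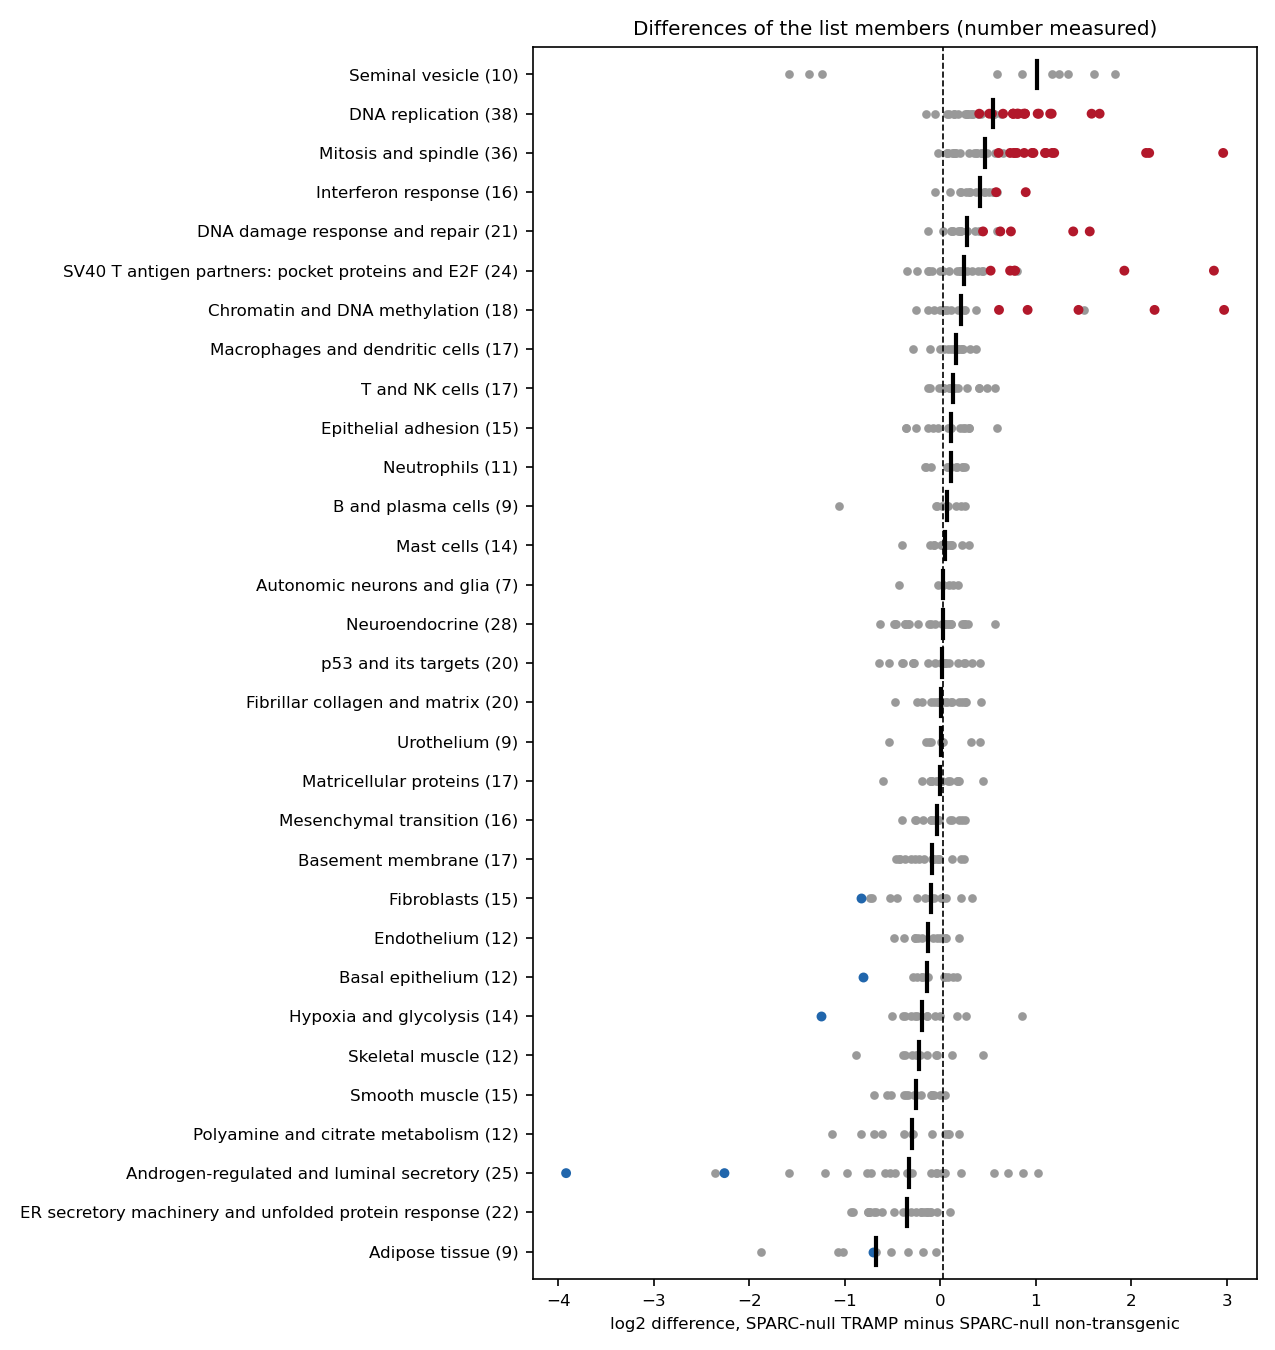
Log2 differences, SPARC-null TRAMP minus SPARC-null non-transgenic (horizontal axis), of the measured members of 31 gene lists (rows, number measured in parentheses), with called rises in red, called falls in blue and genes not called in grey. Black bars are list medians and the dashed line is the median of all probe sets, 0.03, and called rises stand only in the rows of replication, mitosis, interferon, repair, E2F and chromatin genes.

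The transgene effect was then set beside that in late mice with intact Sparc, which shares no array with it. There limma called 140 probe sets (0.63%), of which 136 rose (0.612%) and 4 fell (0.018%). Of the rises, 91 probe sets were called in both, 45% of the 202 and 66.9% of the 136. The sign was the same for 201 of the 202, with a median difference of 0.79 on the SPARC-null background and 0.55 with intact Sparc. Hells rose by 2.97 on the SPARC-null background and by 2.96 with intact Sparc, Asf1b by 2.25 and 2.30, and Pcna by 1.67 and 1.73. Of the 80 falls none was called with intact Sparc. The sign was the same for 68 of them (85%), and the median difference was -0.75 on the SPARC-null background and -0.20 with intact Sparc. Both sets were chosen for their difference on the SPARC-null background, so smaller medians elsewhere follow in part from the choice. Replication genes gave 19 calls of 38 on the SPARC-null background and 13 with intact Sparc, and mitotic genes 15 and 13 of 36.

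The difference between the transgene effects was tested directly. Ages differed as well, with 24 to 29 weeks in SPARC-null TRAMP against 24 to 25 in TRAMP with intact Sparc. Non-transgenic animals were of 25 to 27 weeks against 24, so background and age cannot be told apart here. At an adjusted p under 0.05 limma called 0 of 22206 probe sets (0%), with 993 at an unadjusted p under 0.05 and a smallest adjusted p of 0.838. With 1 weight per array 24 were called, with AUC as a covariate 1, and under the other alternatives 0. For Tff3 the effect was 2.69 on the SPARC-null background and 1.10 with intact Sparc, a difference of 1.58 (limma unadjusted p = 0.00315). For Chrna3 the effects were -1.39 and -0.25, a difference of -1.13 (limma unadjusted p = 0.00111), and for Amt -0.996 and 0.15, a difference of -1.14 (limma unadjusted p = 3.21e-04). None of these held after adjustment over all probe sets. The falls are therefore not shown to differ between the backgrounds.

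In early SPARC-null mice the transgene effect was called at 558 probe sets (2.51%), with 324 rises (1.46%) and 234 falls (1.05%). It shared 100 rises with the late effect, 49.5% of the 202 and 30.9% of the 324, and 25 falls, 31.2% of the 80 and 10.7% of the 234. Ccne2 rose by 2.87 late and 2.76 early, Mki67 by 2.19 and 1.32, and Ezh2 by 0.92 and 1.16. Of the largest late falls, Spink1 differed by -3.92 late and 0.47 early (limma unadjusted p of the difference = 0.00333), and Wfdc3 by -2.15 and -0.36 (0.00751). Both were chosen for their late difference, so smaller early effects follow in part from the choice. Neither difference between late and early held after adjustment over all probe sets. Among metabolic genes Idh1 fell by 1.15 late and 1.10 early, and Man1a by 1.26 and 1.16. The test of late minus early effects called 0 probe sets (0%) by limma, with 723 at an unadjusted p under 0.05 and a smallest adjusted p of 1, and 0 under all alternatives.

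**Figure D5:**
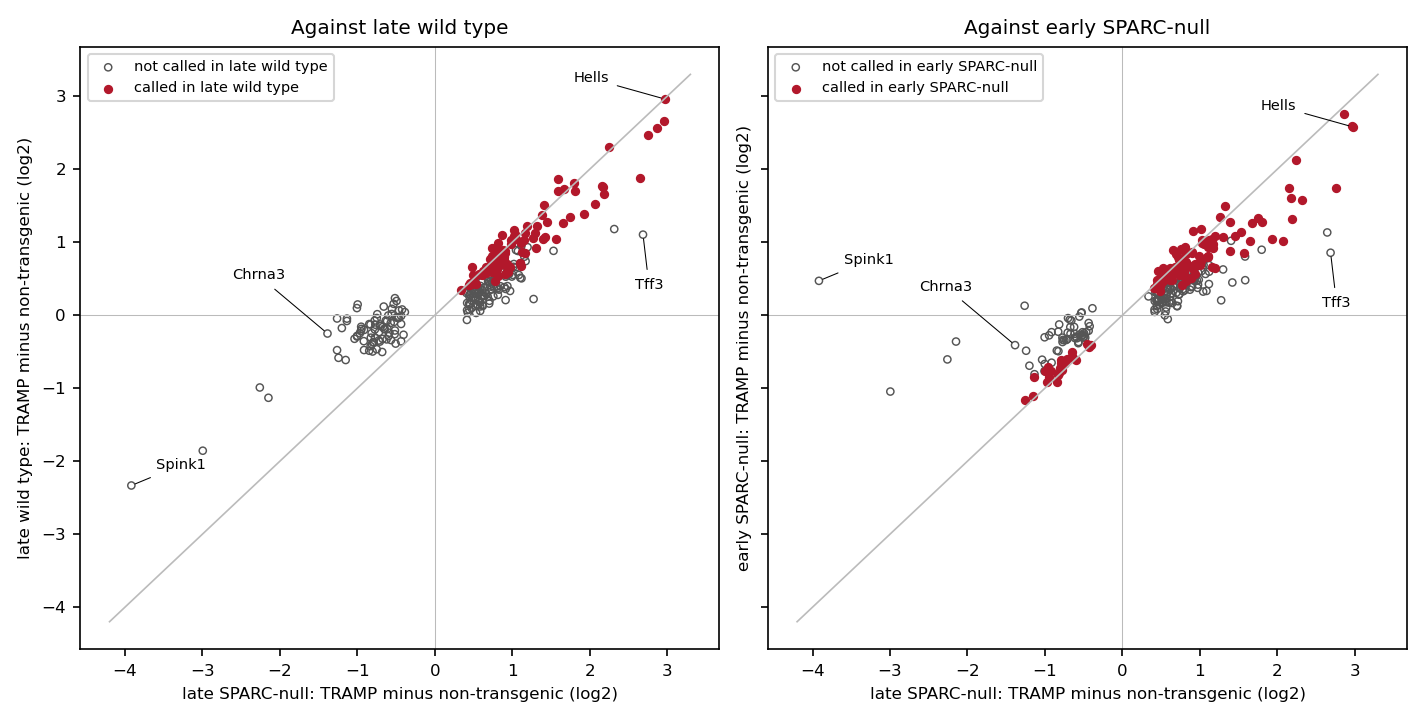
Log2 transgene effects of the 282 called probe sets, with the late SPARC-null effect (horizontal axes) against the effect in late mice with intact Sparc (left panel, vertical axis) and in early SPARC-null mice (right panel, vertical axis); filled points are also called there and the grey diagonal marks equal effects. Rises lie near or below the diagonal in both panels, while none of the 80 falls is called in the left panel and 25 are in the right one.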

How the data were processed

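Total RNA of 68 mouse samples was hybridised to Clariom S arrays. The deposited log2 values were made by the authors with RMA in the oligo package, per the submitters' processing notes, with versions not given in the sources used here. Its quantile step gives all arrays 1 distribution, so a shift of most genes in 1 direction would be lost, and differences at low signal are compressed.

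Of 29129 probe sets 6923 controls stayed out of the tests. The platform annotation gave 1 symbol for 19572 of the 22206 target probe sets, none for 2634 and several for 0, and all 19572 Entrez identifiers matched RefSeq (GRCm38.p6). The sources used here name no build for the array design, so only promoter coordinates, from RefSeq, are printed. Array O12, whose code and genotype label differ, was left out.

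limma 3.58.1 in R 4.3.3 (lmFit, eBayes, 2-sided) fitted 1 mean per group to 67 arrays in 12 groups, with weights by transgene status (1.11 transgenic, 0.87 non-transgenic), and adjusted p by Benjamini-Hochberg over all target probe sets. Label checks used exact permutation over 715 splits. The fit was tested on simulated data. The animals and the 31 gene lists were chosen with earlier results of these data known. Named are Sparc, the 15 largest called rises and falls with a symbol (predicted genes left out), and up to 4 called members of each list per direction, 1 probe set per gene, that of highest mean. Spp1 has no named probe set. Genes named outside the rule were chosen after their values were seen. Each array is a separately coded animal, and 9 against 4 arrays limit the precision. The correlation between arrays of the 13 ran from 0.933 to 0.988.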

Additional observations from a re-analysis of the deposited data

Results flagged for a closer look

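Of 100 gene and group combinations tested among the named genes, 8 had an array far from the rest of its group, 3 in SPARC-null TRAMP and 5 in SPARC-null non-transgenic. Chance flags about 1 in 20 such groups. In SPARC-null TRAMP, ST15 stood apart for Idh1 at 8.66, with the next array at 7.71, and for Uggt2 at 5.18, with the next at 4.21, while ST16 stood apart for Cdk2 at 7.41, with the next at 7.01. In SPARC-null non-transgenic arrays, S3 was high for Smc4 at 6.46, next to 5.89, and low for Asf1b at 8.24, next to 8.73. S6 was low for Rbl1 at 4.51, next to 4.63. S5 was low for Exo1 at 3.998, next to 4.26. S2 was low for Usp18 at 6.27, next to 6.69.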

How the results depend on the processing

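The direction of every named gene was the same under the alternatives run, and calls depended on the settings. The 282 calls (202 higher, 80 lower) became 1111 (559, 552) on the 13 arrays alone, 2070 (1094, 976) with 1 weight per array, 1101 (882, 219) with AUC as a covariate, 1047 (553, 494) without the 7 arrays of the series with an AUC under 0.7, none of which is compared here, 501 (265, 236) without ST15 and ST16, and 448 (239, 209) without ST6, ST15 and ST16, an alternative chosen after seeing the data. They became 184 (138, 46) with quantile normalization repeated, and the lower calls 123 without weights. At least 2-fold were 74. The cause of these shifts was not tested. Age as a covariate gave 254, centring on the median 268, trend and robust 271, and a filter on dim probe sets 278. Leaving out 1 array gave 107 (without S5) to 378 (without ST15) calls, 96 to 233 higher and 11 to 145 lower. Calls of the 48 named genes held under all 25 alternatives (24 for Exo1, Rbl1, Sccpdh and Uggt2, which the dim filter drops) for 23 of 30 rises and 1 of 18 falls. Without S5, 5 rises and 15 falls lost their call, and without S6, 3 and 14. Under all settings 66 probe sets were called higher and 5 lower. For the difference from mice with intact Sparc, 1 weight per array gave 24 calls and AUC as a covariate 1. No paired analysis was possible because animal codes are not shared between groups.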

Other observations

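The following genes were chosen after their values were seen. The 5 probe sets called lower under every setting were Chrna3, Anapc16, a subunit of the anaphase-promoting complex (-0.95), Aldh2, the mitochondrial aldehyde dehydrogenase (-0.81), Pik3r3, a regulatory subunit of PI 3-kinase (-0.65), and Vps26b, of the retromer (-0.60). Chrnb4, the receptor subunit that pairs with Chrna3, ran from 6.32 to 6.90 in SPARC-null TRAMP and from 7.11 to 7.82 in SPARC-null non-transgenic arrays, without overlap (difference -0.83, limma adjusted p = 0.015). Of 49 measured replication-dependent histone genes 11 rose and none fell, 6 of 15 H2b genes and 5 of 10 H3 genes. Over all probe sets 0.91% rose. Where a histone gene had more than 1 probe set, that of lowest p was counted. No H2a gene of 13 and no H4 gene of 11 was called by limma, with medians of 0.07 and 0.19. These copies are near-identical, and their probe sets may not separate them.

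Further single genes were called. Atoh1, the transcription factor of intestinal secretory lineages, ran from 7.17 to 7.78 in SPARC-null TRAMP and from 6.50 to 6.75 in SPARC-null non-transgenic arrays (difference 0.91, limma adjusted p = 0.00312). In mice with intact Sparc it differed by 0.21 (limma unadjusted p of the difference = 0.00776, not called after adjustment). Hepacam2, a cell adhesion molecule, rose by 1.09 (limma adjusted p = 0.0011). Ido1, the interferon-induced tryptophan-degrading enzyme, rose by 1.28 (limma adjusted p = 0.00319). It ran from 5.71 to 8.34 in SPARC-null TRAMP, with a median of 6.21, and from 5.10 to 5.37 in SPARC-null non-transgenic arrays. ST6 (8.34) and ST5 (7.73) were highest, and the other SPARC-null TRAMP arrays ran from 5.71 to 6.38. The transgene effect on Ido1 was 0.22 with intact Sparc and 0.20 in early SPARC-null mice, and it was called in neither.

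Olfr167 lies in a cluster of olfactory receptor genes on chromosome 16, and its neighbours differed less. In RefSeq order, Olfr164, Olfr165 and Olfr166 differed by 0.04, 0.17 and 0.14. On the other side Olfr168 differed by 0.76 (limma adjusted p = 0.0597), Olfr169 by 0.80 (0.00339), Olfr170 by 0.47 (0.272), Olfr171 by 0.79 (0.0797), and the next gene, Lamp3, by 0.51 (0.0479). Olfr164, Olfr165, Olfr166, Olfr168, Olfr169 and Olfr171 were dim, with means below the median negative control probe set in both groups. Differences at such low signal are compressed, so their sizes are not set against that of Olfr167 on equal terms. Over the series Olfr167 averaged 8.43 ± 0.32 in late TRAMP with intact Sparc (SD, n = 7) and 5.95 ± 0.38 in its non-transgenic group (SD, n = 6). In late OPN-null mice it averaged 6.39 ± 0.73 with the transgene (SD, n = 3) and 7.21 ± 1.12 without it (SD, n = 3), the 1 pair of groups of the series in which the transgenic mean was lower.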
